A study of Mus musculus with 6 samples.

Results

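Small macrophages (MΦs) of the mouse peritoneum that carry transcripts of *Irf4*, *Fcrls*, *Dcstamp* and *Ocstamp* are described here. Of 7760 barcodes in 6 joined single-cell libraries, 7665 had at least 500 genes and at most 10% mitochondrial UMIs (unique molecular identifiers, the counted transcripts), and 2773 of these were MΦs. A MΦ had at least 2 UMIs of *Csf1r*, *Adgre1* and *Fcer1g* together, at most 2 of the B cell genes *Cd79a* and *Cd79b*, and at most 1 of the T and NK cell genes *Cd3d*, *Cd3e* and *Nkg7*. The 322 small MΦs were those with at least 2 UMIs of *Fcrls*, *Irf4*, *Ocstamp* and *Dcstamp* together and none of *Gata6* or *Selp*. They were compared with the 1192 MΦs that had at least 1 UMI of *Gata6* or *Selp*, here called Gata6/Selp MΦs, and 1259 MΦs fell in neither class. The members were chosen by the measured counts of these genes, so every difference between them is given as a description with no test. Cell size was not measured, and "small" is the field's name for MΦs of this kind.

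The cells came from the lavage of adult C57BL/6 mice that were either *Mertk*+/+ or *Mertk*-/- (the MerKD line), the latter without the efferocytosis receptor MerTK. Cells of each genotype were plated and rinsed, and those that stayed received a media change as the control or were kept for 2 h or 6 h with apoptotic Jurkat cells, a human T cell line carrying a GFP reporter, which gave 1 library for each of the 6 combinations. Cells of several mice were pooled within a library. The libraries are told apart in the count table by a number from 1 to 6 after each barcode. No label links these numbers to a genotype or a time, so no condition is compared and levels are given by library number.

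The peritoneal cavity holds a minor population of MΦs that blood monocytes renew, and these small MΦs need IRF4 and carry the antigen-presenting MHC class II molecules and the integrin CD11c (*Itgax*). Most resident MΦs of the cavity are larger, have little MHC class II and much F4/80 (the product of *Adgre1*), and are kept by the transcription factor GATA6. DC-STAMP and OC-STAMP are membrane proteins required for the fusion of osteoclasts and of foreign-body giant cells. FCRLS is an Fc receptor-like scavenger protein best known as a marker of microglia.

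The libraries held 4234786 to 10287079 UMIs (median 6976770). Small MΦs had a median of 4069 UMIs and 1562 genes per cell, with library medians from 3002 to 6344 UMIs, against 5365 UMIs and 1770 genes in Gata6/Selp MΦs, where library medians ran from 3058.5 to 6595. In all, 1535384 UMIs of small MΦs and 6867864 of Gata6/Selp MΦs were summed. Levels are such sums scaled to 1000000 UMIs (CPM). Of the barcodes, 28 were seen in 2 or more libraries, 1 small MΦ carried such a barcode, and no such barcode was shared by 2 small MΦs. Scrublet called 47 barcodes (0.606%) as doublets, of which 1 was a small MΦ.

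Small MΦs made up 11.6% of the MΦs (95% exact binomial interval 10.4–12.9%, which, as for all intervals here, covers counting error only). The share was lowest in library 4, with 38 of 690 MΦs (5.51%, 3.93–7.48%), and in library 2, with 20 of 350 (5.71%, 3.53–8.68%). Libraries 5 (22 of 325, 6.77%, 4.29–10.1%) and 1 (61 of 666, 9.16%, 7.08–11.6%) came next. In library 3 (55 of 225, 24.4%, 19.0–30.6%) and library 6 (126 of 517, 24.4%, 20.7–28.3%) the share lay above the interval of each of the other 4. Gata6/Selp MΦs were 31.1% and 20.1% of the MΦs in libraries 3 and 6, and 42.6% to 58.3% in the others. The 2 libraries with the most small MΦs among their MΦs were thus those with the fewest Gata6/Selp MΦs, and in library 6 small MΦs outnumbered them, 126 to 104. Fewer cells of one class and better capture of the other cannot be told apart from these shares. Both classes also rest on detecting UMIs of the rule genes. Gata6/Selp MΦs had a median of 3058.5 UMIs in library 6, 6595 in library 3 and 4349 to 6499 in the others. The part of depth in the shares was not tested.

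**Figure D1:**
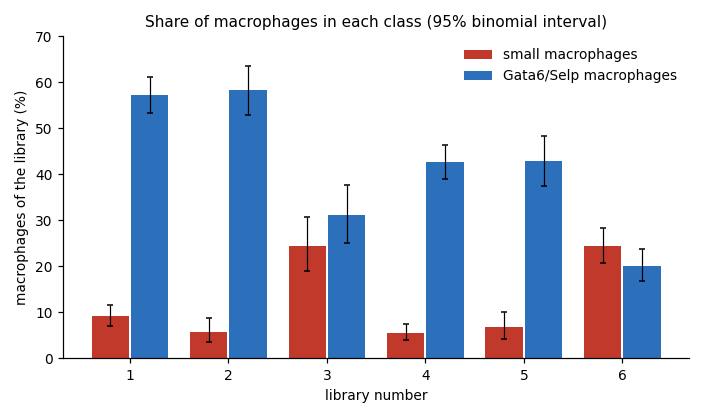
Percentage of MΦs in each numbered library that were small MΦs (red) or Gata6/Selp MΦs (blue), with exact binomial 95% intervals for counting error. Small MΦs are at 24.4% in libraries 3 and 6 and between 5.51% and 9.16% in the other 4.

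Among the 4 genes that admitted the cells, *Dcstamp* (chromosome 15, 39745930–39760938; gene positions are on GRCm38) was the most widespread, with 990 UMIs in 269 of the 322 cells (83.5%). *Irf4* (chromosome 13, 30749226–30766976), which encodes interferon regulatory factor 4, had 632 UMIs in 185 cells (57.5%). *Fcrls* (chromosome 3, 87250758–87263738) had 227 UMIs in 129 cells (40.1%), and *Ocstamp* (chromosome 2, 165393760–165400405) had 164 UMIs in 72 cells (22.4%). Of the cells, 118 had UMIs of a single gene of the 4, 97 of 2 genes, 85 of 3 and 22 of all 4. *Dcstamp* alone admitted 80 cells (24.8%), *Irf4* alone 36 (11.2%), *Fcrls* alone 2 and *Ocstamp* alone none. The commonest combination of several genes was *Fcrls*, *Irf4* and *Dcstamp* together, in 46 cells. The threshold of 2 UMIs had 79 cells just inside it, while 164 MΦs with no *Gata6* or *Selp* UMI had a single UMI of the 4 genes and lay just outside. These 164 cells had 1627 CPM of *H2-Ab1*, against 1957 CPM in the 79 with 2 UMIs and 2492 CPM in the 46 with 3. Another 16 cells had 2 or more UMIs of the 4 genes and were kept out by a *Gata6* or *Selp* UMI.

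By library, *Irf4* was between 128 and 793 CPM in small MΦs (median 414) and between 1.57 and 43.8 CPM in Gata6/Selp MΦs (median 6.603). *Dcstamp* was between 538 and 881 CPM (median 678) against 5.51 to 11.7 CPM. *Fcrls* was between 81.3 and 174 CPM (median 148) and *Ocstamp* between 48.6 and 227 CPM (median 112), and both were at 0 in 4 or more of the 6 sums of Gata6/Selp MΦs. These differences follow from the rule. *Irf4* is not particular to MΦs here, since 44.9% of 3235 cells set apart as B cells by *Cd79a* and *Cd79b* had a UMI, while *Dcstamp*, *Fcrls* and *Ocstamp* were in 0.9%, 0.2% and 0.2% of these B cells.

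The 3 marker genes of the group that were not part of the rule were high in it. *Mmp19* (chromosome 10, 128790910–128800824), which encodes a matrix metalloproteinase, was between 1196 and 2206 CPM in the 6 sums of small MΦs (median 1592) and between 15.7 and 56.1 CPM in Gata6/Selp MΦs (median 31.3). Every library held a gap of this kind, and the pooled log2 ratio was 5.73 (5.57–5.98), where 1 CPM is added to both levels and the interval is the exact conditional one of the ratio with nothing added. *Itgax* (chromosome 7, 128129547–128150657), which encodes the integrin CD11c, was between 151 and 400.4 CPM (median 204) against 0.755 to 6.23 CPM, a log2 ratio of 6.25 (6.03–7.40). After thinning every cell to 1500 UMIs, 64.2% of small MΦs had an *Mmp19* UMI and 32.6% an *Itgax* UMI, against 3.12% and 0.338% of Gata6/Selp MΦs and 1.02% and 1.22% of T and NK cells, which should lack *Mmp19* and so give its level of free RNA, whereas NK cells can make CD11c (unthinned, *Mmp19* was in 73.9%, 8.72% and 1.57% of these cells and *Itgax* in 60.2%, 1.43% and 2.56%; median depth was 4069, 5365 and 2799 UMIs).

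*Ccl22* (chromosome 8, 94745590–94751699), a chemokine that attracts CCR4+ T cells, was the exception among these markers. It was between 158 and 381 CPM in small MΦs of 5 libraries, but at 15.2 CPM in library 4, where Gata6/Selp MΦs had 17.1 CPM. In the other libraries Gata6/Selp MΦs had 0 to 16.0 CPM. The pooled levels were 223 and 7.86 CPM, a log2 ratio of 4.66, and 5.42 without library 4. Few cells carried it, 53 of 322 small MΦs (16.5%, 12.6–21.0%), 8 of 1192 Gata6/Selp MΦs (0.671%) and 3 of 508 T and NK cells (0.591%). Of the 7 markers of the group, 4 are the genes of the rule, whose detection was fixed by it. The other 3 were chosen with earlier results of these data known, so their levels are no independent check of its label.

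Across the genome, 5642 genes other than the 14 of the rule had at least 20 CPM in small MΦs or in Gata6/Selp MΦs. A gene was called where the pooled ratio was at least 2-fold and all 6 libraries went the same way, and 480 genes (8.51%) were called higher and 390 (6.91%) lower in small MΦs. The median log2 ratio of all genes tested was 0.10, and the shares of 8.51% and 6.91% apply beside the counts of every list below. A 2-fold ratio in the pool that failed in at least 1 library was seen in a further 173 genes above and 79 below.

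The genes furthest above, among those with at least 50 CPM, were *Siglecf*, *Itgax*, *Car2*, *E230016K23Rik*, *Mmp19*, *Kcnn4*, *Plbd1*, *Edn1*, *Prelid2* and *Inhba*. *Siglecf* (chromosome 7, 43351341–43359531), a sialic acid-binding receptor of eosinophils and alveolar MΦs, had 55.9 to 264 CPM in small MΦs (median 176) and no UMI in Gata6/Selp MΦs of 5 libraries, with 2.27 CPM in library 1 (log2 ratio 6.34, 6.28–8.89). *Edn1*, which encodes the vasoconstrictor endothelin-1, had 186 to 757 CPM (median 413) against 0 to 22.7 CPM (5.19, 4.97–5.67). *Inhba*, which encodes the activin A subunit, had 203 to 1128 CPM (median 587) against 6.27 to 56.1 CPM (5.06, 4.85–5.46). In none of these genes did the ranges of the 2 classes overlap.

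*Kcnn4*, the calcium-activated potassium channel KCa3.1, had 259 to 530 CPM (median 321) against 1.57 to 64.2 CPM (5.28, 5.05–5.84). *Car2*, carbonic anhydrase 2, an enzyme osteoclasts use to make acid, had 30.5 to 264 CPM (median 90.2) and at most 1.22 CPM in Gata6/Selp MΦs (5.93, 5.97–9.26). The long noncoding *E230016K23Rik* had 81 UMIs in small MΦs and 0 in Gata6/Selp MΦs, which makes it at least 121-fold higher against a floor of 3 UMIs over the class. It lies on the plus strand of chromosome 11 from 83582056 to 83623693 and spans the minus-strand gene *Ccl6* (83587882–83593087), and whether strand was used in the counting is not given in the sources used here.

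Among the genes furthest below were *Hdc*, *Vmn2r26*, *Ptgis*, *Lrg1*, *Timd4*, *Ackr3*, *Cxcl13*, *Il6* and *Itga6*. *Hdc*, the enzyme that makes histamine, had 4 UMIs in all small MΦs (0 to 15.2 CPM by library) and 32.9 to 165 CPM in Gata6/Selp MΦs (log2 ratio -5.00). *Ptgis*, prostacyclin synthase, had 0 to 9.46 CPM against 105 to 136 CPM (-4.13). *Il6* had 0 to 117 CPM, with the highest value in library 4, against 218 to 837 CPM (-3.79). *Itga6*, the laminin-binding integrin α6, had 0 to 35.6 CPM against 185 to 242 CPM (-3.78). The ranges of the classes did not overlap for these genes.

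MHC class II genes were higher in small MΦs. Of 14 genes of class II presentation tested, 8 were called higher and none lower, beside 8.51% and 6.91% of all genes. Their median log2 ratio was 2.16 against 0.10 over all genes. Members such as *H2-DMb1* passed the 20 CPM filter only through small MΦs, which raises that median. *Cd74*, the invariant chain, was between 9393 and 17613 CPM in small MΦs (median 12721) and between 102 and 2726 CPM in Gata6/Selp MΦs (median 1438), a pooled log2 ratio of 2.98 (2.95–3.01). *H2-Ab1*, the class II β chain, was between 1901 and 4015 CPM (median 2740) against 67.4 to 732 CPM (median 272), a ratio of 2.76 (2.70–2.83). The peptide loaders *H2-DMa* and *H2-DMb1* were at 123 and 71.6 CPM against 21.1 and 9.32 CPM, where reads of *H2-DMb1* and the near-identical *H2-DMb2* could be split in counting. The 2 classes differed in how they varied. *Cd74* varied by less than 2-fold over the libraries in small MΦs, whereas Gata6/Selp MΦs had 2423 to 2726 CPM in libraries 1, 2 and 3 and 102 to 452 CPM in libraries 4, 5 and 6. The ratio of *Cd74* therefore ran from 2.37 to 6.74 by library, and that of *H2-Ab1* from 1.94 to 5.22. Leaving out library 1, which gave the most Gata6/Selp cells, raised the pooled *H2-Ab1* ratio to 3.51.

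T and NK cells had 1472 CPM of *Cd74* and 279 CPM of *H2-Ab1* although T cells of the mouse do not make class II, beside the pooled 1719 and 448 CPM of Gata6/Selp MΦs, and B cells had 11270 and 1326 CPM. The level in T and NK cells came from few of them. Their sum of *H2-Aa*, *H2-Ab1*, *H2-Eb1* and *Cd74* had a median of 0 CPM per cell, with 10% of cells over 905 CPM. In small MΦs 93.0% of thinned cells had a *Cd74* UMI, against 47.8% of Gata6/Selp MΦs and 13.01% of T and NK cells (95.03%, 61.5% and 14.96% unthinned). *Ctss* and *Lgmn*, proteases that cut the invariant chain, did not follow the class II genes. *Ctss* was at 650 against 413 CPM and *Lgmn* at 269 against 226 CPM, neither of them called. Of the costimulatory genes *Cd83* was called higher, at 253 against 93.2 CPM, while *Cd86* (360 against 195 CPM) and *Cd80* (39.1 against 42.2 CPM) were not called.

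The stretches of 250 bases before the start of 4 genes of the group are shown because they hold the known class II elements beside 2 genes that lack them. They are from RefSeq on GRCm38.p6, 5′ to 3′ on the strand of the gene. Capitals mark matches, on either strand, to the letters CTNGCAAC of the class II X box, CTGATTGG of the Y box, GAGGAA of the PU.1 core and TGANTCA for AP-1, and to the NF-kB motif, motifs chosen after the sequences and values were seen. Of 19 genes looked up, 12 had a promoter in the table. *Irf4* is at chr13:30748983-30749232 on the plus strand, *Itgax* at chr7:128129300-128129549 on the plus strand, *H2-Aa* at chr17:34287824-34288073 on the minus strand and *H2-Eb1* at chr17:34305617-34305866 on the plus strand.
H2-Aa: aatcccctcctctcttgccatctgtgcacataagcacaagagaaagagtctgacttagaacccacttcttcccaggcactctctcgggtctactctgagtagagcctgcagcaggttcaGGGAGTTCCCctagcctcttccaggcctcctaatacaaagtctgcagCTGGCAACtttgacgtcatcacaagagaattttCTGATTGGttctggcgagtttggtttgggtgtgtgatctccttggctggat
H2-Eb1: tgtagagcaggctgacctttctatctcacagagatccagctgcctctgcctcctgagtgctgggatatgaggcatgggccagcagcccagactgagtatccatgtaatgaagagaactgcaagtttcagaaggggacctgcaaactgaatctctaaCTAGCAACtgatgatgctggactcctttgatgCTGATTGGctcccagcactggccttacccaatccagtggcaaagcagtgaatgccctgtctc
Irf4: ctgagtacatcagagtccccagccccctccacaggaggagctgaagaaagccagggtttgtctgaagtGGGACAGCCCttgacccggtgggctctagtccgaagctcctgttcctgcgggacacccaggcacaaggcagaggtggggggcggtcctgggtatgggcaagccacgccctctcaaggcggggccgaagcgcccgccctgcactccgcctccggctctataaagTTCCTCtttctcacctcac
Itgax: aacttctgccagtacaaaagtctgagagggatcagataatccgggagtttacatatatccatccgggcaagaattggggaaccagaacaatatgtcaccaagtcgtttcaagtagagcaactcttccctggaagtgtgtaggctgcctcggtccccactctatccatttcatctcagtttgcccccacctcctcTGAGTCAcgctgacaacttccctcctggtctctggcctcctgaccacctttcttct
Both class II genes held an X box ahead of a Y box. In *H2-Aa* these began at -84 and -51 from the start, with an NF-kB match at -131, and in *H2-Eb1* they began at -94 and -62. Over all 27025 promoters of the same length, 2.93% held the X box letters and 4.07% the Y box letters. *Irf4* held an NF-kB match at -182 and a PU.1 core, read on the other strand, at -19, and *Itgax* held an AP-1 match at -56. Of the promoters not printed, those of *Fcrls*, *Siglecf*, *Edn1* and *E230016K23Rik* held a PU.1 core, and those of *Ccl22*, *Kcnn4* and *Plbd1* an NF-kB match. These letters stood in 17.3% (NF-kB), 23.1% (PU.1 core) and 6.87% (AP-1) of promoters. No match to the ETS-IRF composite element, which PU.1 and IRF4 bind together, was found in the 4 stretches, and 2.38% of promoters held one.

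Genes that the literature ties to small peritoneal MΦs were mostly higher. Of 17 tested, 14 were called higher and 1 lower, beside 8.51% and 6.91% of all genes, with a median log2 ratio of 2.98. Members such as *Itgax*, at 2.91 CPM in Gata6/Selp MΦs, passed the 20 CPM filter only through small MΦs. That filter raises the count called higher and the median, so neither is read as a result of the list. *Retnla*, an alternative-activation gene, was between 4073 and 7175 CPM in small MΦs (median 5404) and between 90.8 and 367 CPM in Gata6/Selp MΦs, a ratio of 4.84 (4.77–4.93). *Ccr2*, the receptor that brings monocytes into tissue, was between 19.4 and 210 CPM (median 64.4) against 0 to 32.1 CPM, a ratio of 4.70 (4.43–5.73), and it was higher in small MΦs in each library although the ranges overlap. The calcium-binding *S100a6* was between 622 and 1806 CPM against 67.4 to 158 CPM. The lysozyme genes went opposite ways, *Lyz1* at 3933 against 931 CPM and *Lyz2*, the gene called lower, at 8766 against 17930 CPM, with the reservation that reads of this pair can be split in counting.

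**Figure D2:**
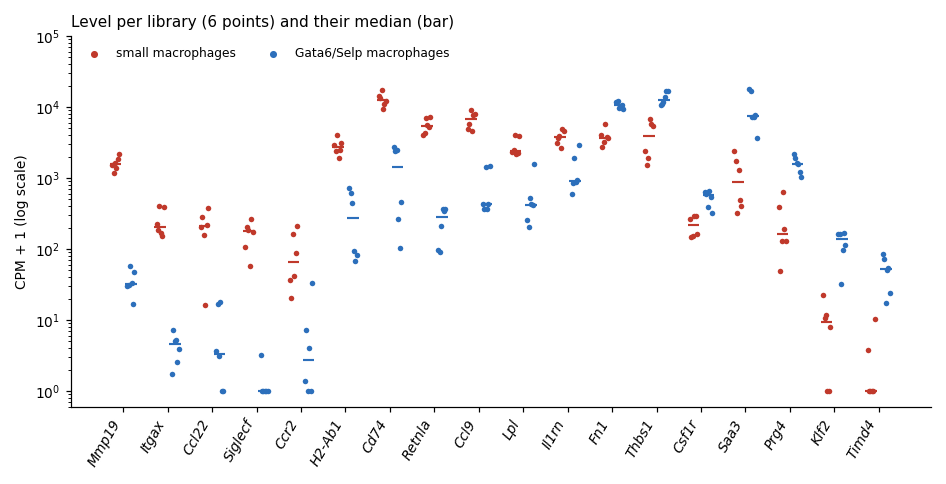
Level of 18 genes in CPM plus 1 (log axis) in small MΦs (red) and Gata6/Selp MΦs (blue), with 1 point for each of the 6 libraries and a bar at their median. *Mmp19*, *Itgax*, *Cd74*, *H2-Ab1*, *Retnla*, *Ccl9* and *Lpl* are higher in small MΦs with no overlap, *Ccl22* overlaps through library 4, and *Fn1*, *Thbs1*, *Saa3*, *Prg4*, *Klf2* and *Timd4* are lower with no overlap.

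Chemokines were called in both directions. Of 18 tested, 5 were called higher and 3 lower, beside 8.51% and 6.91% of all genes, with a median log2 ratio of 1.31. *Ccl9*, a ligand of CCR1, was between 4585 and 9150 CPM in small MΦs (median 6758) and between 363 and 1471 CPM in Gata6/Selp MΦs, a ratio of 3.72 (3.67–3.78), and 95.3% of small MΦs had a UMI. Its neighbour *Ccl6* was at 3794 against 746 CPM, and the inflammatory chemokines *Ccl3* and *Ccl4* were at 2418 and 2713 CPM against 846 and 1125 CPM. *Ccl3* and *Ccl4* were highest in library 3 in both classes, with 5805 and 6047 CPM in its small MΦs. *Cxcl14* was the other gene called higher. Called lower were the neutrophil chemokine *Cxcl2* (2565 against 5178 CPM), the platelet chemokine *Pf4* (416 against 3254 CPM) and the B cell attractant *Cxcl13* (2.61 against 52.1 CPM). The library ranges of both classes overlapped for *Ccl3*, *Ccl4*, *Ccl6* and *Cxcl2*, but not for *Ccl9*, *Cxcl14*, *Pf4* and *Cxcl13*. The eosinophil chemokine *Ccl24*, at 6641 and 5371 CPM, was abundant in both classes and was not called. Among chemoattractant receptors, 2 of 9 tested were called higher, *Ccr2* among them, and 3 lower, the formyl peptide receptors *Fpr1* and *Fpr2* and the sphingosine receptor *S1pr1*.

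Of 15 other genes of cell fusion and osteoclasts tested, 3 were called higher and 1 lower, beside 8.51% and 6.91% of all genes, and the median log2 ratio was 0.32. The 3 were *Cd200r1*, an inhibitory receptor (165 to 407 CPM by library against 22.3 to 96.3 CPM), *Itgav*, the integrin αv (102 to 264 against 61.4 to 111 CPM), and *Atp6v0d2*, a proton pump subunit needed for fusion (20.3 to 63.0 against 0 to 4.15 CPM). *Nfatc1*, the regulator that switches on *Dcstamp* in osteoclasts, was at 43.6 and 37.6 CPM and was higher in 3 of 6 libraries. *Tyrobp* and *Sirpa*, which also act in fusion, were at 1926 against 1546 CPM and 274 against 275 CPM.

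Matrix genes lay on both sides. Of 21 matrix proteases, inhibitors and matrix proteins tested, 7 were called higher and 8 lower, beside 8.51% and 6.91% of all genes. Called higher were the proteases *Mmp12* (340 to 1090 CPM against 17.8 to 96.3 CPM, ratio 4.58), *Mmp13* (87.5 to 390.1 against 17.8 to 46.7 CPM), *Mmp19* and *Plau*, the urokinase receptor *Plaur*, the inhibitor *Timp1* and the matrix protein *Tgfbi*. Among those called lower were the matrix proteins *Fn1*, *Thbs1*, *Vcan*, *Ecm1* and *Prg4*, the crosslinking enzyme *Tgm2* and the inhibitor *Timp2*. *Thbs1*, thrombospondin 1, was between 1527 and 6796 CPM against 10749 to 16861 CPM (ratio -1.72). *Fn1*, fibronectin, was between 2703 and 5713 CPM against 9379 to 11999 CPM (ratio -1.54).

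Receptors and bridging molecules for dead cells were called in both directions. Of 18 tested, 3 were called higher and 4 lower, beside 8.51% and 6.91% of all genes, with a median log2 ratio of -0.82. *Axl*, a TAM receptor that binds GAS6, was between 55.9 and 169 CPM in small MΦs against 4.53 to 11.02 CPM (ratio 3.93, 3.66–4.56). *Mertk*, its relative and the gene targeted in the *Mertk*-/- mice, had 21 UMIs in small MΦs (13.7 CPM) and 201 in Gata6/Selp MΦs (29.3 CPM), and was lower in 5 of 6 libraries and not called, in a pool that includes the *Mertk*-/- libraries. The phosphatidylserine receptor *Timd4* was at 3.26 against 63.3 CPM, the bridging genes *Pros1* and *Mfge8* at 26.1 and 3.91 CPM against 67.6 and 40.3 CPM, and the scavenger receptor *Msr1* at 80.1 against 281 CPM, all 4 called lower. *Cd36* and *Itgav* were called higher, but the libraries overlapped for *Cd36* (1721 to 3556 against 711 to 3292 CPM). The lipid genes *Lpl* (2186 to 3974 against 204 to 1552 CPM, ratio 3.02), *Soat1* and *Pltp* were higher as well, while the cholesterol exporter *Abca1* and *Apoe* were lower, of 15 lipid genes tested.

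Among 28 transcription factors tested, 4 were called higher and 5 lower, beside 8.51% and 6.91% of all genes. *Batf3*, a partner of IRF4 and IRF8, was between 15.2 and 46.3 CPM against 0 to 1.78 CPM. The ETS repressor *Etv3* held a steady ratio, at 188 to 277 CPM against 39.5 to 61.3 CPM, with the log2 ratio of each library between 2.07 and 2.31. *Irf5* (206 against 75.7 CPM) and *Ahr* (148 against 57.8 CPM) were the others called higher. *Klf2* (0 to 21.8 against 31.2 to 169 CPM), which is linked to resident MΦs, was among those called lower, as were *Rxra*, *Relb* and *Tfec*. *Spi1*, which encodes PU.1, was at 548 against 381 CPM, higher in each library but under 2-fold.

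Of 13 receptors for colony-stimulating and other growth factors tested, none was called higher and *Csf3r* alone was called lower. Of all genes 8.51% were called higher and 6.91% lower. *Csf2ra* and *Csf2rb*, the GM-CSF receptor chains, were at 434 and 848 CPM against 241 and 456 CPM, higher in each library and under 2-fold, and *Csf2rb* shares sequence with *Csf2rb2*. *Csf1r*, the M-CSF receptor, was used to choose MΦs and was at 206 against 596 CPM. *Adgre1*, also used, was at 72.3 against 266 CPM.

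Inflammatory genes were lower or alike, with 2 exceptions. Of 16 tested, 5 were called lower, *Il6*, *Il1a*, *Cd14*, *Tlr2* and *Socs3*, and 2 higher, the interleukin-1 receptor antagonist *Il1rn* (2689 to 4886 against 600.3 to 2895 CPM, ratio 2.00) and *Tnip3*, an inhibitor of NF-kB signalling (97.2 to 187 against 8.01 to 24.5 CPM, ratio 2.96). *Il1b* was at 592 against 1109 CPM and lower in each library, under 2-fold, and *Tnf* was at 107 against 104 CPM. Of 18 genes that respond to interleukin-4, 5 were called higher (*Retnla*, *Mrc1*, *Socs2*, *Egr2* and *Il1rn*) and 3 lower (*Arg1*, *Tgm2* and *Alox15*). *Arg1*, arginase 1, was between 201 and 1022 CPM against 2073 to 4027 CPM, so *Retnla* and *Arg1*, often read as a pair, differed in opposite directions. Of 15 C-type lectin and Fc receptor genes tested, *Clec4b1* and *Mrc1* were called higher and *Clec4e* and *Fcgr3* lower, where *Clec4b1* belongs to a family of close copies. The shares of all genes, 8.51% higher and 6.91% lower, stand beside the counts of each of these lists.

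Genes of large peritoneal MΦs were lower. Of 27 tested, 19 were called lower and none higher, beside 6.91% and 8.51% of all genes, with a median log2 ratio of -2.28. Members such as *Timd4*, at 3.26 CPM in small MΦs, passed the 20 CPM filter only through Gata6/Selp MΦs. That filter raises the count called lower and lowers the median, so neither is read as a result of the list. *Saa3*, a serum amyloid gene, was between 319 and 2389 CPM in small MΦs (median 886) and between 3633 and 17753 CPM in Gata6/Selp MΦs (median 7499), a ratio of -3.58. *Prg4*, the lubricant protein, was between 48.6 and 625 CPM against 1027 to 2170 CPM (-2.82), and the clotting factor *F5* between 9.72 and 107 CPM against 429 to 837 CPM (-3.34). *Saa3* had a UMI in 17.7% of small MΦs and 95.97% of Gata6/Selp MΦs, and in 8.27% of T and NK cells and 5.53% of B cells. *F10* (722 against 709 CPM) and *Cd9* (640 against 955 CPM) were not called.

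**Figure D3:**
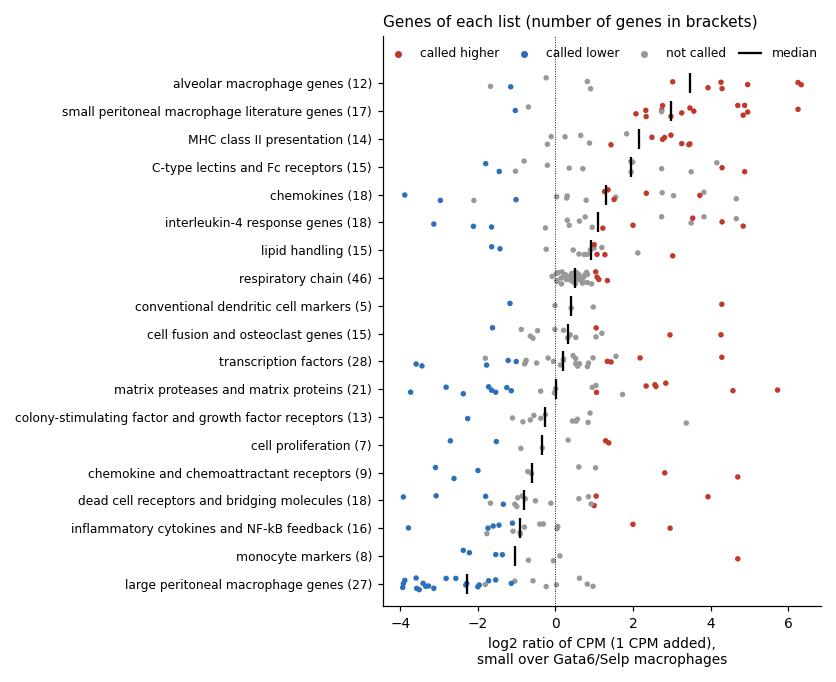
Log2 ratio of CPM, small over Gata6/Selp MΦs, for each gene tested in 19 lists with 5 or more tested genes (1 point per gene, red called higher, blue called lower, gray not called; the black bar is the list's median). Medians run from -2.28 for large peritoneal macrophage genes to 3.48 for the alveolar macrophage list, which was chosen after the values were seen. Some members of the latter passed the 20 CPM filter only through small MΦs, which raises its median. Some of the large peritoneal macrophage list passed only through Gata6/Selp MΦs, which lowers its median.

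Of 46 genes of the respiratory chain tested, 45 had a log2 ratio above 0 and 25 were higher in all 6 libraries, beside 56.2% and 16.5% of all genes tested. Of these 46, *Uqcr10*, *Cox7b*, *Ndufa13* and *Atp5e* were called higher, a share close to the 8.51% of all genes. The median ratio was 0.51, and *Atp5e*, the highest, was between 920.0 and 1455 CPM against 372 to 575 CPM. Of 7 proliferation genes tested, *Pcna* and *Cenpa* were called higher and *Mki67* and *Hmgb2* lower. *Mki67* had a UMI in 0.9% of small MΦs and 8.3% of Gata6/Selp MΦs.

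Markers of other cell types were present to different degrees. Of 18 markers of conventional dendritic cells, 6 were at 0, *Flt3* among them (0 of 322 cells, which allows up to 0.932% of cells with a UMI, as 3 counts of the total), 5 were tested, *Batf3* was called higher and *Cd24a* lower (95.7 against 217 CPM). *Zbtb46*, another defining gene, was at 16.3 against 6.55 CPM, and the summed level of the list was between 458 and 681 CPM in small MΦs and between 517 and 762 CPM in Gata6/Selp MΦs. Most of this sum came from *Cd24a* and from *Sirpa*, which was alike in both classes. Leaving out the cells with a UMI of the dendritic cell genes set for this check left 299 small MΦs and 446 genes higher. Of 13 markers of T and NK cells, 5 were at 0 and *Il7r*, the interleukin-7 receptor, was called higher, at 201 to 541 CPM against 7.93 to 93.4 CPM. *Il7r* had a UMI in 39.9% of thinned small MΦs and 39.4% of thinned T and NK cells (65.8% and 54.5% unthinned), while *Trac*, which only T cells make, was at 0.7 CPM.

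Of 14 neutrophil, eosinophil and mast cell markers, 10 were at 0, including the eosinophil genes *Epx*, *Prg2* and *Ccr3*, with the summed level between 81 and 290 CPM against 38 to 120 CPM, most of it *Siglecf*. The summed level of a list of 12 B cell markers, without any of its genes that the rule used, was between 13 and 137 CPM against 11 to 79 CPM. *Ighm*, at 32.6 against 13.5 CPM, was the B cell gene called higher. Of 16 monocyte markers, 8 were tested, with *Ccr2* called higher and *Vcan*, *Fn1*, *Hp* and *Gsr* lower, and *Ly6c2* was at 1.3 CPM. The summed level of the monocyte list was between 3102 and 6643 CPM in small MΦs and between 10319 and 13058 CPM in Gata6/Selp MΦs. Most of it was *Fn1*, which is also on the list of large peritoneal macrophage genes. The part of monocyte markers in the results was not tested. Of 13 mesothelial and stromal markers, 12 were at 0.

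The cells of the group were not alike. MHC class II genes (the sum of *H2-Aa*, *H2-Ab1*, *H2-Eb1* and *Cd74*) had a median of 25613 CPM per cell, with 10% of cells under 2217 CPM and 10% over 40476 CPM, against a median of 554 CPM in Gata6/Selp MΦs. The summed large peritoneal macrophage genes had a median of 8528 CPM per cell, with 10% of cells under 3283 CPM and 10% over 24603 CPM, against a median of 45064 CPM. Cells with 2 or more of the 4 admitting genes formed the tighter part. These 204 cells had a class II median of 26834 CPM, with 10% of them under 13964, and a median of 7749 CPM of large MΦ genes.

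The cells admitted by a single gene were more mixed. The 80 cells with *Dcstamp* alone had nearly the same class II median, 27079 CPM, but 10% of them were under 2688 CPM. The 36 cells with *Irf4* alone had a class II median of 3091 CPM and a median of 18343 CPM of large MΦ genes. The medians of *Irf4*-alone cells thus lay between those of the other small MΦs and the Gata6/Selp MΦs on both measures. The spread was wide, with 25% of these cells under 211 CPM of class II genes and 10% over 29193 CPM. Of the 36, 21 were from library 6. Whether some had *Gata6* or *Selp* transcripts that went undetected was not tested.

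**Figure D4:**
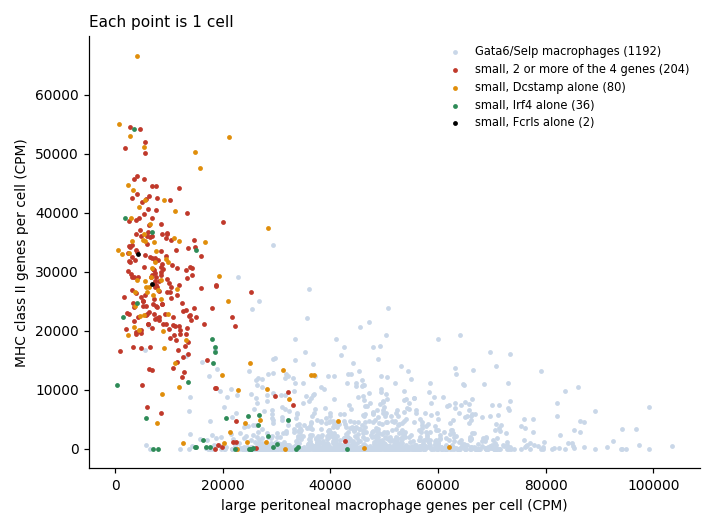
Summed MHC class II genes against summed large peritoneal macrophage genes in CPM for each of 1192 Gata6/Selp MΦs (pale blue) and 322 small MΦs, the latter colored by the genes that admitted them. Most small MΦs with 2 or more genes (red) lie high on the left, while cells with *Irf4* alone (green) and some with *Dcstamp* alone (orange) reach down among the Gata6/Selp MΦs.

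Several genes followed the number of admitting genes in counts pooled over libraries, and the part of the library mixture in this order was not tested. *Mmp19* was at 919 CPM in *Dcstamp*-alone cells, 510 CPM in *Irf4*-alone cells, 2231 CPM in cells with 2 or more genes and 2797 CPM in the 107 of these with 3 or 4. *Inhba* was at 117, 47 and 747 CPM and reached 1075 CPM with 3 or 4 genes, and *Edn1* was at 52, 158 and 643 CPM and reached 877 CPM. *Siglecf* was at 49, 47 and 207 CPM, and *Car2* at 19, 23 and 137 CPM. In the 79 cells with both *Irf4* and *Fcrls*, *Car2* stood at 232 CPM, *Siglecf* at 331 CPM and *Inhba* at 1165 CPM. *Ccl22* broke this order, with 310.1 CPM in *Dcstamp*-alone cells, 53 CPM in *Irf4*-alone cells 222 CPM in cells with 2 or more genes and 334 CPM with 3 or 4.

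Genes of large MΦs went the other way in the same pooled counts. *Saa3* was at 2837 CPM in *Dcstamp*-alone cells and 1963 CPM in *Irf4*-alone cells, 256 CPM in cells with 2 or more genes and 35 CPM with 3 or 4. *Slpi*, a protease inhibitor, was at 7470, 5665, 714 and 90.2 CPM in the same order, and *Prg4* at 555, 644, 77 and 5 CPM. In cells with 3 or 4 genes *Saa3*, *Slpi* and *Prg4* were below their levels in B cells, which were 213, 362 and 32 CPM. *Apoe*, at 3052 and 3205 CPM in the cells with 1 gene and 838 CPM in those with 2 or more, followed them. The median depth of the cells with *Dcstamp* alone (4082.5 UMIs), *Irf4* alone (3947) and 2 or more genes (4160) was close, and that of the cells with 3 or 4 genes was 4583 UMIs.

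**Figure D5:**
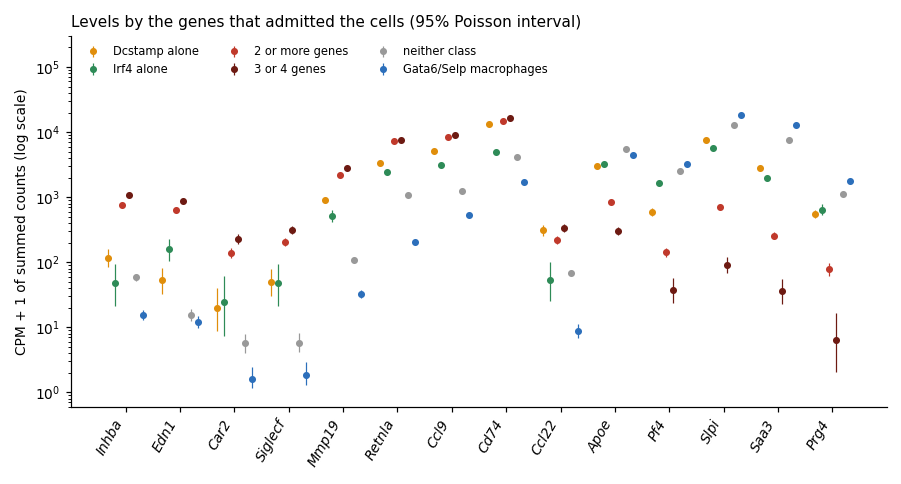
CPM plus 1 of summed counts (log axis) for 14 genes in small MΦs split by the admitting genes, in MΦs of neither class and in Gata6/Selp MΦs, with exact Poisson 95% intervals for counting error. Cells with 3 or 4 genes are also among those with 2 or more. *Inhba*, *Edn1*, *Car2*, *Siglecf* and *Mmp19* are highest in cells with 3 or 4 genes, where *Pf4*, *Slpi*, *Saa3* and *Prg4* are lowest.

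The mixture differed between libraries. Cells with *Dcstamp* alone were 45.9% of the small MΦs in library 1 and 35.0% in library 2, but 14.5% in library 3 and 15.1% in library 6. Cells with 2 or more genes were 44.3% in library 1, 50% in library 2, 59.1% in library 5, 63.2% in library 4, 67.5% in library 6 and 81.8% in library 3. *Saa3* was at 2389 CPM in the small MΦs of library 1 and 319 CPM in those of library 3, and at 17753 and 7236 CPM in the Gata6/Selp MΦs, and the part of the mixture in this was not tested.

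With 313 cells thinned to 1500 UMIs, the ratio of variance to mean over cells had a median of 1.10 over 1905 genes with a UMI in at least 10% of cells, and 117 genes were over 2. The 15 most variable were *Gm42418* (which overlaps ribosomal RNA sequence), *Slpi*, *Fth1*, *Ccl4*, *Saa3*, *Ccl3*, *Cxcl2*, *CT010467.1*, *Ccl24*, *Tmsb4x*, *Apoe*, *Spp1*, *Retnla*, *Thbs1* and *Cxcl3*. *Slpi* had a ratio of 55.9, with a UMI in 15.3% of thinned cells and up to 146 UMIs in a cell. *Ccl4* (18.6) and *Ccl3* (17.1) reached 56 and 60 UMIs in a cell and were absent from more than 4 in 10 cells. In thinned Gata6/Selp MΦs the ratio was 36.8 for *Slpi*, 14.8 for *Ccl4* and 7.68 for *Ccl3*. All these ratios pool the libraries, so they hold differences between libraries as well. Over the 313 small MΦs *Cd74* had Spearman correlations of 0.61 with *H2-Ab1*, -0.51 with *Prg4* and -0.49 with *Saa3*, and *H2-Ab1* had one of 0.42 with *Ccl9*. They are given as descriptions, since the cells share libraries.

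Between libraries, the small MΦs varied most in *Pf4* (0 CPM in library 2 and 1133 CPM in library 4), *Mt3*, *Ccl22* and *Serpinb2*, among 711 genes with at least 300 UMIs in the group, whose median log2 ratio of highest over lowest library was 0.94. *Hmox1*, the heme-degrading enzyme, was between 632 and 1152 CPM in libraries 1, 2 and 3 and between 1870 and 4156 CPM in libraries 4, 5 and 6. *Vim*, the filament gene vimentin, was at 972 CPM in library 6 and 208 to 262 CPM in the other 5, and it was at 835 CPM against 28 to 152 CPM in Gata6/Selp MΦs of the same libraries. *Ccl2* was highest in library 3 in both classes, at 1389 and 1489 CPM. Over the 12 sums of 6 libraries and both classes, the genes whose levels ranked most like those of *Irf4* were *Hspe1* (Spearman 0.97), *Btf3* (0.95), *Rgs2* (0.95), *Adcy7*, *Gm5641*, *Minos1*, *Micall1*, *Safb2*, *Gm15247* and *Rgs1* (all 0.92 to 0.94), an order set in large part by the 2 classes themselves.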

How the data were processed

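Peritoneal cells of 6 samples, 1 per genotype and time, were profiled with the 10x 5′ kit. The authors aligned reads to the human (hg38) and mouse (mm10, GRCm38) genomes with STAR through Cell Ranger (2.2 in the submitters' processing notes, which also list Seurat 3.0, while the study's methods name other versions of both, so the versions used are unclear), and deposited raw UMI counts of the mouse genes per barcode in a table of 55538 features that joins the 6 libraries. The annotation used for counting is not given in the sources used here. No column belongs to another series.

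UMIs of each gene were added up within a class and scaled to CPM (Python 3.11.15, numpy 2.4.6, pandas 2.3.3). Intervals are exact 95% Poisson, conditional or Clopper-Pearson intervals (scipy 1.17.1). Genes named in the text were the 7 markers, the members of 23 gene lists, counted in full with examples chosen for role and level, the 10 genes furthest above and below, the 15 most variable inside the group and the 10 most like *Irf4*. Doublets were called per library with Scrublet (scanpy 1.11.5, expected rate 0.01) and kept, and free RNA was not removed. The members and the lists were chosen with earlier results of these data known. No p-value is given, because each condition has 1 library and cells are not replicates. The ratio and calling steps were tested on simulated Poisson counts drawn from the same profile in every library. These hold no library effects and no selection of cells by genes, so they do not show how the calls hold in real cells. Gene positions are from GENCODE vM21. The alternatives tried are given at the end. A few genes are not reported here.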

Additional observations from a re-analysis of the deposited data

How the results depend on the processing

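In all, 20 alternatives were tried, and of 936 log2 ratios of 52 named genes under them none reversed. The named genes include those furthest above and below, chosen for large ratios with all 6 libraries going the same way. Changing the CPM added cannot reverse a ratio, and the median of libraries cannot where all 6 go the same way. The lack of reversals was thus in large part set beforehand and is not read as a check of the results. The share of small macrophages among macrophages (11.6%) was 17.5% with at least 1 UMI of the 4 genes, 8.76% with at least 3, 9.20% without *Irf4*, 5.07% when cells were thinned to 1500 UMIs before the classes were set, 7.96% as the median of the 6 libraries, 7.36% where at least 2 of the 4 genes had to be detected (chosen after seeing the data), and 8.69% to 13.6% with 1 library left out, lowest without library 6 and highest without library 4. The *Ccl22* log2 ratio (4.66) was 4.34 with at least 1 UMI, 7.82 after thinning, 5.76 as the median of libraries, 4.15 with 5 CPM added, and 4.15 to 5.42 with 1 library left out. That of *H2-Ab1* (2.76) was 2.54 with at least 1 UMI, 2.90 with at least 3, 2.89 without *Irf4*, 3.22 after thinning, 3.75 as the median of libraries, 2.94 with 2 genes detected, and 2.52 to 3.51 with 1 library left out. Genes called higher numbered 176 after thinning, where 101 small macrophages were left and 139 of the 176 were among the 480 (of 387 called lower, 201 were among the 390), and 472 to 536 with 1 library left out. Genes called lower numbered 654 with no filter on low values and 223 with at least 50 CPM, by the change in genes tested (17964 and 2974), and 394 to 442 with 1 library left out. The median log2 ratio of the B cell markers (1 gene) turned to -1.77 after thinning and that of the granulocyte and mast cell markers to 0.62, and at 50 CPM the latter was 2.04 and that of the C-type lectins and Fc receptors -0.21, in lists whose tested members changed. Called doublets left out moved the counts to 473 and 393. No paired analysis was possible because the labels carry no replicate numbers that groups share and no test was run. Depth limits the genes below 20 CPM, and library 2 gave 20 small macrophages, so a level of 0 there is a weak one.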

Other observations

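Further genes, chosen after values were seen, are given as values. Several genes known from alveolar macrophages were high in the small macrophages. Of 25 such genes 12 were tested, 7 were called higher and *Olr1* was called lower, beside 8.51% and 6.91% of all genes. The median log2 ratio was 3.48. Members such as *Siglecf* and *Itgax*, at 0.874 and 2.91 CPM in Gata6/Selp macrophages, passed the 20 CPM filter only through small macrophages. That filter raises the median, so it is not read as a result of the list. *Siglecf*, *Itgax*, *Ear2*, *Mrc1*, *Atp6v0d2*, *Axl* and *Lpl* were the 7. *Ear2*, a ribonuclease with close copies in the genome, was between 19.1 and 68.6 CPM by library in small macrophages and at most 0.755 CPM in Gata6/Selp macrophages. *Marco*, an alveolar scavenger receptor, was at 35.2 against 114 CPM and lower in 5 of 6 libraries, *Fabp4* was at 153 against 181 CPM, and 6 of the 25 genes had no UMI in the group. The set therefore holds both sides.

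*Mt3*, a metallothionein best known from the brain, was at 997 CPM in the small macrophages of library 3 and at 220 CPM in those of library 6, but at 45.7 to 101 CPM in libraries 1, 4 and 5 and at 0 in library 2. In Gata6/Selp macrophages it was at most 11.7 CPM. Of small macrophages 11.8% had a UMI, against 0.5% of Gata6/Selp macrophages. Its relatives *Mt1* and *Mt2* were at 1499.95 against 1946 CPM and 148 against 142 CPM.

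The alarmin *Il33* was at 103 CPM in small macrophages and had 15 UMIs in Gata6/Selp macrophages, all in 1 cell of library 2. In small macrophages it was in 9.0% of cells and was at 3 CPM in cells with *Dcstamp* alone and 225 CPM in those with both *Irf4* and *Fcrls*. *Sdc1*, the proteoglycan syndecan-1, was between 468 and 891 CPM against 12.1 to 96.3 CPM.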
